A study of Mus musculus with 4 samples.

Results

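The genes described here are 10 members of the ephrin and Eph receptor family that are expressed in epidermis, 5 ephrin ligands (Efna1, Efna4, Efna5, Efnb1 and Efnb2) and 5 receptors (Epha1, Epha2, Epha7, Ephb3 and Ephb4). They were chosen by gene symbol with their FPKM values in these libraries, and so their differences between the groups, already known, and they make up 10 of the 24346 symbols measured and 10 of the 22 ephrin and Eph receptor genes of the mouse. All 10 passed the filter on low values, which asked for 1 FPKM or more in 2 or more libraries. By definition, FPKM is a fragment count divided by exon length and by the mapped fragments of the library. Levels of different genes can therefore be compared per length. The deposited values may also carry a scaling between libraries.

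RNA was sequenced from HFSCs, cells sorted as CD49f+ CD34+ from the dorsal skin of 4-week-old C3H/HeN mice and grown without serum in M-CnT, a commercial keratinocyte medium. The groups were HFSCs after 10 passages (10p-HFSCs, 2 libraries) and HFSCs after 48 passages (48p-HFSCs, 2 libraries), with no transgene, drug or other treatment in either. Nothing in the sources says whether the 2 libraries of a group came from separate cultures or animals, so the spread between them may be technical, and the p-values below measure only that spread. In all libraries the RNA held high levels of basal keratinocyte markers. Of 5 bulge markers, Cd34, Lhx2 and Lgr5 were below 1 FPKM in all libraries. Krt15 ranged from 18.8 to 424.8 FPKM and Sox9 from 8.31 to 45.6 FPKM. The comparison addresses which genes differ after long-term passage.

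Ephrins are cell-surface ligands and Eph receptors are receptor tyrosine kinases, so signaling needs contact between neighbouring cells. A-class ephrins are held in the membrane by a GPI anchor and bind mainly EphA receptors, whereas B-class ephrins cross the membrane, bind mainly EphB receptors and can signal into their own cell. In skin the family is known for guiding cell position, adhesion and proliferation, and EphA2 and ephrin-A1 are known for their part in keratinocyte adhesion and differentiation.

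Of the 10 genes, Efnb2, which encodes the transmembrane ligand ephrin-B2, stood highest in 10p-HFSCs and lowest in 48p-HFSCs. Efnb1, which encodes ephrin-B1, was higher in 48p-HFSCs. Efna5, which encodes ephrin-A5, was lower in 48p-HFSCs, and transcripts of the receptor Epha7 were listed above 0 only there. The sequences upstream of Efnb2, Efnb1 and Epha7 are shown because these genes differed most completely between the passages: Efnb2 and Epha7 were each near or at 0 in one group, and Efnb1 had the highest mean level among the ephrins of 48p-HFSCs. Each is the 250 bases before a RefSeq transcript start on the build GRCm38.p6, written 5′ to 3′ on the strand of the gene, with the GC box GGGCGG, read on both strands, in capitals.
Efnb2, chr8:8661243-8661492, minus strand: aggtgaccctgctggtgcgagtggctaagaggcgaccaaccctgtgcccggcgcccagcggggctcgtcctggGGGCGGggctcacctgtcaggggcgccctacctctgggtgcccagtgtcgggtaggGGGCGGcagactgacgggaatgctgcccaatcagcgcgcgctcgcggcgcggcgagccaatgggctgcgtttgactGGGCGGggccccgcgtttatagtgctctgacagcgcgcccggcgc
Efnb1, chrX:99135811-99136060, plus strand: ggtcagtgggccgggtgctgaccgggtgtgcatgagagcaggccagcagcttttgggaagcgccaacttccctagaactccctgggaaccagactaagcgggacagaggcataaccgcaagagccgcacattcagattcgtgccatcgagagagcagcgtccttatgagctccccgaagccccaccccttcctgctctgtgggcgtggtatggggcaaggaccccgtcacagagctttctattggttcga
Epha7, chr4:28812881-28813130, plus strand: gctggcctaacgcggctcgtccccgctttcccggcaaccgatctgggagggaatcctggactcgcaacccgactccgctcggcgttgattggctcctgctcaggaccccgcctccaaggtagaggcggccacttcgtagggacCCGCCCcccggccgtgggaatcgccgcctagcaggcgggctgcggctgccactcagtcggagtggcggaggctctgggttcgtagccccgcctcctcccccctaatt

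With motifs counted on both strands, the Efnb2 promoter held 3 GC boxes, 1 match to the TATA box (TATAAA) and 2 CCAAT boxes. The TATAAA match lay on the strand opposite to the gene and reads tttata in the sequence shown. This promoter had 27 CpG dinucleotides and a GC content of 72%. The Epha7 promoter held 1 GC box and 1 CCAAT box, with 25 CpG and 69.2% GC. The Efnb1 promoter held no GC box and 1 CCAAT box, with 13 CpG and 60% GC. Over all 32851 mouse promoters of this length in the same RefSeq table, the median was 6 CpG and 52.4% GC. A GC box was present in 32.7%, a TATA box in 12.4% and a CCAAT box in 33.9%, each counted on both strands. These motif matches describe the letters of the window and are not evidence of a bound factor. Efnb2 and Epha7, which differed between the passages in opposite directions, stood close together at the 92.4th and the 90.4th percentile of CpG number, and Efnb1 stood at the 70.6th.

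The ephrin-B ligands gave the widest differences. Efnb2 (chr8:8617434-8661242 in GENCODE M21 on GRCm38, minus strand) was measured at 78.5 and 76.0 FPKM in replicates 1 and 2 of 10p-HFSCs and at 0.172 and 0 FPKM in replicates 1 and 2 of 48p-HFSCs. The groups did not overlap, and the replicates of 10p-HFSCs lay close together. Efnb2 passed the filter on low values only through 10p-HFSCs, so the groups had to differ. The log2 difference, 48p minus 10p on the log2(FPKM + 1) scale, was -6.18 (SE 0.27), and it was -8.87 with a pseudocount of 0.1, so its size depends on the constant added to values near 0. Efnb2 ranked 1002nd and 1078th of the 24346 symbols in the 10p libraries.

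Efnb1 (chrX:99136130-99148991, plus strand) was measured at 11.6 and 10.7 FPKM in 10p-HFSCs, against 44.3 and 60.4 FPKM in 48p-HFSCs. Both 48p libraries were above both 10p libraries, with means of 11.1 ± 0.654 and 52.4 ± 11.4 FPKM (SD, n = 2). The log2 difference was 2.12 (SE 0.27). Efnb2 thus exceeded Efnb1 by a ratio of 6.77 and 7.13 in the 10p libraries, and the order was turned in both 48p libraries.

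The A-class ligands differed less and not all in the same direction. Efna5 (chr17:62604184-62881317, minus strand) was measured at 20.3 and 27.6 FPKM in 10p-HFSCs, against 10.9 and 9.85 FPKM in 48p-HFSCs. Both 48p libraries were below both 10p libraries, and the log2 difference was -1.12 (SE 0.28). Efna4, which encodes ephrin-A4 (chr3:89333390-89338028, minus strand), was measured at 16.0 and 22 FPKM in 10p-HFSCs, against 42.5 and 26.6 FPKM in 48p-HFSCs. Its 48p libraries were both higher, with a log2 difference of 0.81 (SE 0.33). An annotated antisense gene, which has no value here, overlaps Efna4. Efna1, which encodes ephrin-A1 (chr3:89271733-89281142, minus strand), was measured at 25.4 and 31.1 FPKM in 10p-HFSCs, against 29.0 and 55.5 FPKM in 48p-HFSCs. The groups overlapped for Efna1, whose high value came from replicate 2 of 48p-HFSCs, and the log2 difference was 0.50 (SE 0.36).

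**Figure D1:**
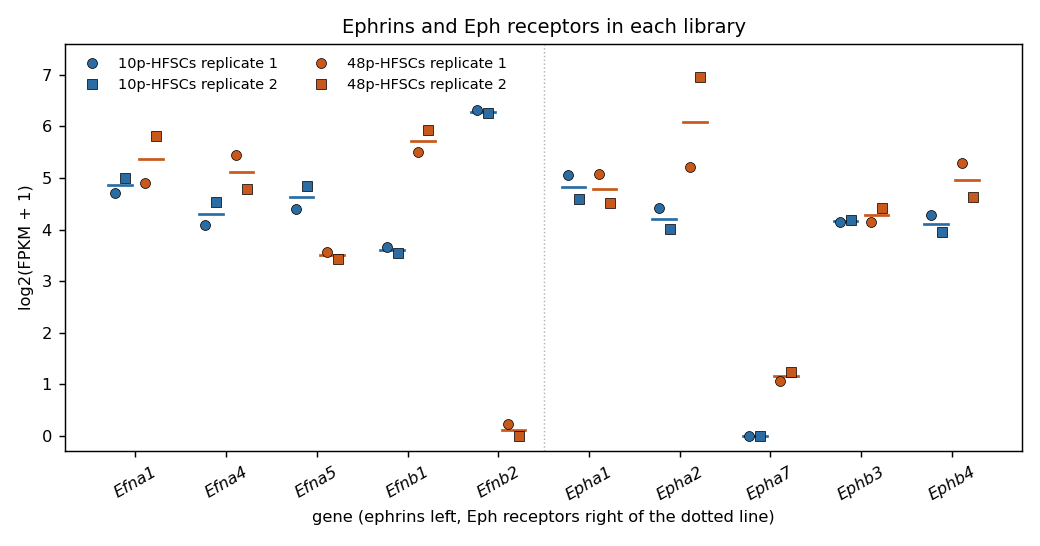
Level of each of the 10 genes in each library on the log2(FPKM + 1) scale, with 10p-HFSCs in blue, 48p-HFSCs in orange, circles for replicate 1, squares for replicate 2 and short lines for group means. Efnb2 is highest of all in 10p-HFSCs and near 0 in 48p-HFSCs, and the widest gap between replicates is that of Epha2 in 48p-HFSCs.

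Among the receptors, Epha2, whose product is a major EphA receptor of keratinocytes (chr4:141301240-141329384, plus strand), was measured at 20.5 and 15.0 FPKM in 10p-HFSCs, against 36.0 and 123.9 FPKM in 48p-HFSCs. Both 48p libraries were above both 10p libraries, but replicate 2 of 48p-HFSCs was 3.44-fold above replicate 1, a wider replicate gap on the log2(FPKM + 1) scale than in 97.6% of the genes tested. The log2 difference was 1.87 (SE 0.58), and it was 0.995 without replicate 2 of 48p-HFSCs and 2.75 without replicate 1. The size of the Epha2 difference therefore rests on replicate 2 of 48p-HFSCs.

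Epha7, which encodes an EphA receptor with a kinase-deficient splice form (chr4:28813131-28967499, plus strand), was listed at 0 in both 10p libraries and measured at 1.10 and 1.36 FPKM in 48p-HFSCs. It passed the filter on low values only through 48p-HFSCs, so the groups had to differ. No fold is given against values of 0, and the fitted log2 difference of 1.15 (SE 0.21) became 3.73 with a pseudocount of 0.1. The level in 48p-HFSCs stayed far below that of the other 4 receptors described.

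Ephb4, which encodes a receptor best known for binding ephrin-B2 (chr5:137350109-137378669, plus strand), was measured at 18.3 and 14.5 FPKM in 10p-HFSCs, against 38.1 and 23.7 FPKM in 48p-HFSCs. Both 48p libraries were higher, with a log2 difference of 0.84 (SE 0.32). The span of Ephb4 overlaps that of Zan, which had no value above 0.114 FPKM. Ephb3, which encodes another receptor for B-class ephrins (chr16:21204755-21223305, plus strand), was measured at 16.6 and 17.3 FPKM in 10p-HFSCs, against 16.8 and 20.4 FPKM in 48p-HFSCs. These values overlapped, with a log2 difference of 0.12 (SE 0.25). Epha1, which encodes an EphA receptor of epithelia (chr6:42358487-42373268, minus strand), was measured at 32.1 and 23.0 FPKM in 10p-HFSCs, against 32.6 and 21.8 FPKM in 48p-HFSCs. Its groups also overlapped, with a log2 difference of -0.03 (SE 0.32). The annotated span of Epha1 overlaps that of Zyx on the other strand, which was measured between 51.8 and 56.5 FPKM. Reads from the shared stretch could be told apart only if the counting used strand, which the sources do not state.

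A gene was called where the Benjamini-Hochberg adjusted p from limma was under 0.05 and the absolute log2 difference was at least 1. By this rule 2 of the 10 genes were called higher in 48p-HFSCs (Efnb1 and Epha7), against 10.8% of the 11018 genes tested. A further 2 were called lower (Efnb2 and Efna5), against 9.15% of all genes, and 6 were not called. In all 4 were called, against 19.9% of all genes. The median log2 difference of the 10 genes was 0.65, and that of all genes tested was -0.03. The libraries of the groups did not overlap for 7 of the 10 genes, 5 of them higher and 2 lower in 48p-HFSCs, against 65.9% of all genes tested. Epha2 was called after quantile normalization and without replicate 1 of 48p-HFSCs. The calls of Efnb1 and Epha7 were lost without either library of 10p-HFSCs, and that of Efna5 also without replicate 2 of 48p-HFSCs. With 1 library of 10p-HFSCs left, the calls over all genes dropped to 35 or 36 higher and 140 or 146 lower. A gene that was not called may still differ between the passages. Since the genes were chosen with these differences known, the counts describe them and nothing is read from them.

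Summed FPKM differed between libraries, from 581516 to 1414953, and replicate 2 of 48p-HFSCs had the highest sum. Rescaling each library to TPM, so that all sums are equal, moved the median of all genes by -0.52 on the log2 scale. Relative to that median Efnb1 was at 2.16 before and 2.13 after, Efna1 at 0.54 before and 0.49 after, and Epha7, whose 10p values are 0 on either scale, at 1.19 before and 1.75 after. In absolute terms Efna1 turned from 0.50 to -0.070 and Ephb3 from 0.12 to -0.44. Efnb1 remained at 1.58 and Efna5 at -1.68 on the TPM scale but neither was called there, with Efnb2 at -6.75 and Epha7 at 1.19 still called. After TPM rescaling the libraries of the groups did not overlap for 5 of the 10 genes (Efna5, Efnb1, Efnb2, Epha2 and Epha7), against 59.5% of all genes tested, while those of Efna4 and Ephb4 overlapped. Over all genes, the calls were 1189 higher and 1008 lower on FPKM, and 623 higher (5.65%) and 812 lower (7.37%) on TPM. The levels of Efna4, Efna1, Ephb3, Ephb4 and Epha1 thus give no direction that holds on both FPKM and TPM with separated groups. Median-of-ratios scaling, in contrast, moved the median of all genes by 0.0024, with 1198 genes called higher and 1006 lower. With that scaling Efna4 was at 0.81 and Ephb4 at 0.85, and neither was called.

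**Figure D2:**
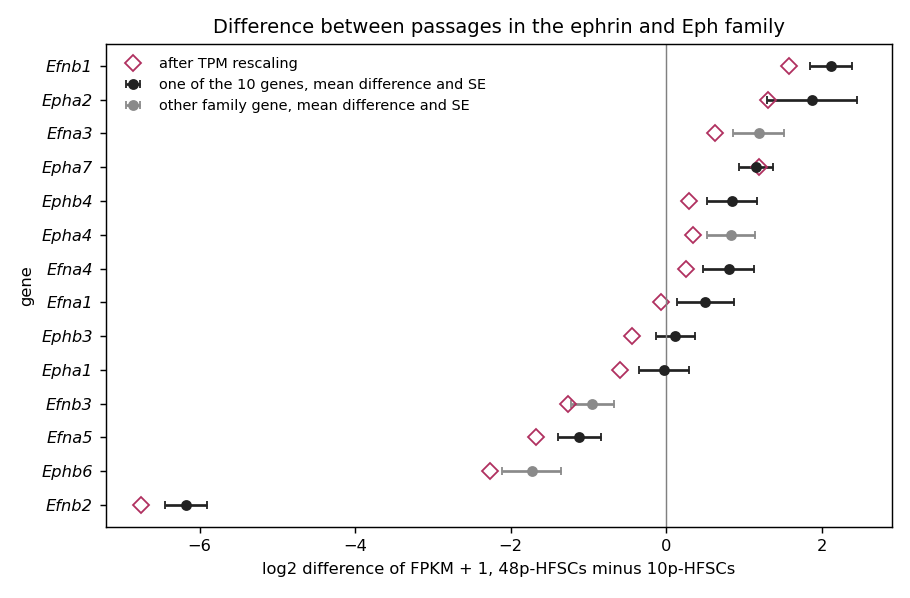
Log2 difference between 48p-HFSCs and 10p-HFSCs for the 14 family genes that passed the filter, with filled points and bars for the mean difference and SE on log2(FPKM + 1), black for the 10 genes described and gray for other family genes, and open diamonds for the value after TPM rescaling. Efnb2 lies apart at -6.18, and the diamonds of Efna1 and Ephb3 fall on the other side of 0 from their points.

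The order of the 10 genes by mean level changed between the groups. In 10p-HFSCs Efnb2 (77.3 ± 1.74 FPKM, SD, n = 2) was clear of the next gene. The next 7, from Efna1 (28.2 ± 4.09) down to Ephb4 (16.4 ± 2.73), formed a run in which neighbouring genes overlapped. Efnb1 stood below these, with its libraries apart from those of Ephb4, and Epha7 was last at 0. In 48p-HFSCs the first 6 places were held by Epha2 (80.0 ± 62.2 FPKM), Efnb1, Efna1 (42.3 ± 18.7), Efna4 (34.5 ± 11.2), Ephb4 (30.9 ± 10.2) and Epha1 (27.2 ± 7.61). Neighbouring genes among these 6 overlapped, and Epha1 was apart from the gene after it. Ephb3 (18.6 ± 2.53), Efna5 (10.4 ± 0.709), Epha7 (1.23 ± 0.181) and Efnb2 followed, with each pair of neighbours apart. The order within the upper places of 48p-HFSCs is therefore not resolved by these libraries.

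Summed over the 8 ephrin genes of the mouse, the FPKM came to 172.3 and 190.2 in the 10p libraries and to 187.0 and 186.4 in the 48p libraries. After TPM rescaling the sums were 296.4 and 264.5 against 280.8 and 131.7, so the level of the sum in replicate 2 of 48p-HFSCs depends on the scale. Efnb2 gave 45.6% and 40.0% of the ephrin sum in the 10p libraries and 0.0920% and 0% in the 48p libraries, whereas Efnb1 went from 6.73% and 5.61% to 23.7% and 32.4%. The B class as a whole gave 52.9% and 46.6% of the ephrin sum in the 10p libraries and 24.0% and 32.5% in the 48p libraries. Efna5 went from 11.8% and 14.5% to 5.81% and 5.29%. Shares within a library do not depend on how the library is scaled.

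Summed over the 14 receptor genes, the FPKM was 119.3 and 97.3 in the 10p libraries and 144.2 and 205.5 in the 48p libraries. After TPM rescaling the sums were 205.2 and 135.4 against 216.5 and 145.2, and the groups overlapped. Epha2 gave 17.2% and 15.4% of the receptor sum in the 10p libraries and 25.0% and 60.3% in the 48p libraries. The ratio of Epha2 to Epha1 within a library was 0.638 and 0.653 in the 10p libraries and 1.11 and 5.68 in the 48p libraries. Ephb4 gave 15.4% and 14.9% in the 10p libraries and 26.5% and 11.5% in the 48p libraries, so its share overlapped between the groups. The share of Epha7 in the receptor sum of 48p-HFSCs was 0.764% and 0.660%.

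**Figure D3:**
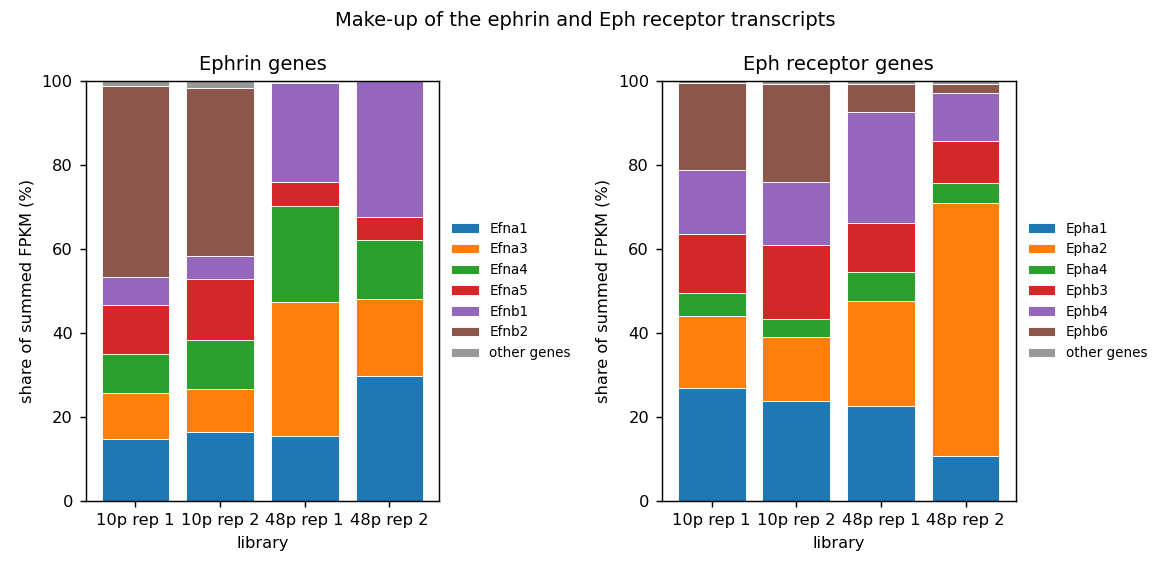
Share of the summed FPKM of the 8 ephrin genes (left) and of the 14 Eph receptor genes (right) given by each gene in each library, in percent, with genes under the named ones joined in gray. The brown Efnb2 segment of the 10p libraries (45.6% and 40.0%) is absent from the 48p libraries, and Epha2 in orange gives 60.3% of the receptor sum in replicate 2 of 48p-HFSCs.

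Of the 12 family genes outside the list, 4 passed the filter, and 1 of them (25%) was called, against 19.9% of all genes tested. Ephb6, which encodes a kinase-deficient receptor, was measured at 24.6 and 22.8 FPKM in 10p-HFSCs, against 9.45 and 4.30 FPKM in 48p-HFSCs. It fell in both 48p libraries, with a log2 difference of -1.73 (SE 0.38, adjusted p from limma 0.028). The call was lost without either library of 10p-HFSCs (adjusted p from limma 0.33 and 0.27) and after TPM rescaling, where the log2 difference was -2.27 and the adjusted p from limma was 0.052. The ratio of Ephb4 to Ephb6 within a library was 0.745 and 0.635 in the 10p libraries and 4.04 and 5.5 in the 48p libraries.

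Efna3, which encodes ephrin-A3, was measured at 18.7 and 19.6 FPKM in 10p-HFSCs, against 59.7 and 33.9 FPKM in 48p-HFSCs, with a log2 difference of 1.19 (SE 0.33, adjusted p from limma 0.055), and was not called. Efnb3, which encodes ephrin-B3, was measured at 1.14 and 1.93 FPKM in 10p-HFSCs, against 0.470 and 0.139 FPKM in 48p-HFSCs, with a log2 difference of -0.95 and an adjusted p from limma of 0.061. Epha4, which encodes a receptor that binds ephrins of both classes, was measured at 6.50 and 4.05 FPKM in 10p-HFSCs, against 10.1 and 9.95 FPKM in 48p-HFSCs, with a log2 difference of 0.84 and an adjusted p from limma of 0.11. On FPKM the groups did not overlap for these 4 genes, against 65.9% of all genes tested not overlapping, and on TPM they overlapped for Efna3 and Epha4. Efnb3 passed the filter only through 10p-HFSCs, so its groups had to differ.

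The other 8 family genes were low or at 0. Efna2 was measured at 0.735 and 1.13 FPKM in 10p-HFSCs, against 0.0306 and 0 FPKM in 48p-HFSCs, and Ephb2 at 0.547 and 0.544 FPKM and at 0 and 0.113 FPKM. Epha3 and Epha6 were listed at 0 in all 4 libraries, and Epha5, Epha8, Epha10 and Ephb1 had no value above 0.054 FPKM. An FPKM of at least 4 in every library was found for 11 of the 22 family genes. The genes Efna1, Efna3 and Efna4 lie next to each other on chromosome 3 within 66.3 kb, and their summed FPKM was 60.1 and 72.8 in the 10p libraries and 131.2 and 116.0 in the 48p libraries. After TPM rescaling the sums were 103.4 and 101.3 against 196.9 and 82.0, and the groups overlapped.

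Genes through which Eph receptors and ephrins act were taken from 3 lists based on general knowledge. Kinases, phosphatases and adaptors, and proteases that cut ephrins or receptors, are described below, and the genes of the other list enter only the counts over all 3. Of 59 genes listed 50 were tested, and 4 were called higher and 4 lower, which is 16% against 19.9% of all genes. Their median log2 difference was -0.17, beside -0.03 for all genes tested. An unadjusted p from limma under 0.05 was found for 19 of the 50, against 4118 of all 11018 genes tested, a like share.

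Of the 25 kinases, phosphatases and adaptors tested, 1 was called higher and 1 lower, which is 8% against 19.9% of all genes. Their median log2 difference was -0.39. On FPKM the groups did not overlap for 20 of the 25, 8 higher and 12 lower in 48p-HFSCs, against 65.9% of all genes tested. Sdcbp, which encodes syntenin, a PDZ protein that binds the tail of B-class ephrins, was measured at 57.8 FPKM in both 10p libraries and at 120.2 and 115.0 FPKM in 48p-HFSCs (log2 difference 1.01, SE 0.25, adjusted p from limma 0.041). Crkl, which encodes an SH2 and SH3 adaptor, was measured at 25.8 and 25.5 FPKM in 10p-HFSCs, against 13.4 and 9.37 FPKM in 48p-HFSCs (log2 difference -1.13, SE 0.28, adjusted p from limma 0.040). The remaining 23 did not pass the test, among them Src, a kinase that acts downstream of both classes, at 38.6 and 40.7 FPKM in 10p-HFSCs, against 28.5 and 32.7 FPKM in 48p-HFSCs.

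Of the 9 proteases and protease subunits tested, 1 was called higher and 1 lower, which is 22.2% against 19.9% of all genes. Rhbdl2, which encodes a rhomboid protease known to cut B-class ephrins, was measured at 3.95 and 2.09 FPKM in 10p-HFSCs, against 10.7 and 7.63 FPKM in 48p-HFSCs (log2 difference 1.36, SE 0.35, adjusted p from limma 0.045). Psen2, which encodes a catalytic subunit of gamma-secretase, was measured at 13.8 and 14.4 FPKM and at 5.06 and 5.60 FPKM (log2 difference -1.25, SE 0.26, adjusted p from limma 0.024). Adam10, whose product cuts A-class ephrins, was measured at 40.4 and 31.2 FPKM in 10p-HFSCs, against 35.4 and 22 FPKM in 48p-HFSCs and did not pass the test. Without either library of 10p-HFSCs none of the 8 calls over the 3 lists was made, without replicate 2 of 48p-HFSCs 1 mediator was called higher and 1 lower, and without replicate 1 of 48p-HFSCs 7 and 10 were. After TPM rescaling none of the 8 was made in limma, with 0 higher and 0 lower. Of all genes tested, 5.65% were then called higher and 7.37% lower.

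**Figure D4:**
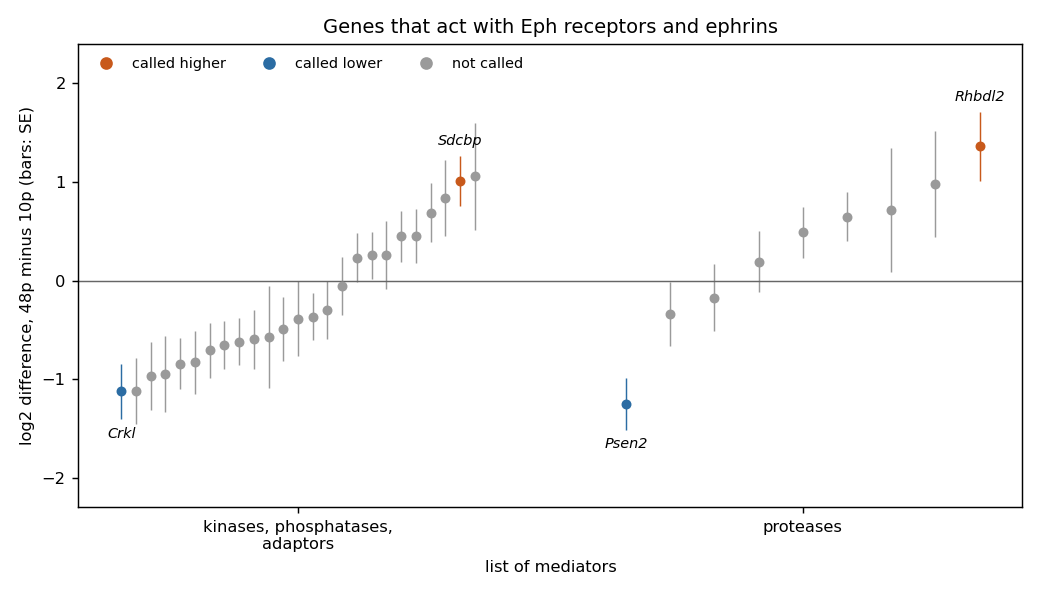
Log2 difference between 48p-HFSCs and 10p-HFSCs on log2(FPKM + 1) for the 25 tested kinases, phosphatases and adaptors and the 9 tested proteases, each sorted by value, with points for the mean difference, bars for the SE and color for the call. In both lists 1 called gene lies above 0 and 1 below.

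The genes near Efnb2 on chromosome 8 were also lower in 48p-HFSCs, though by far less. The 20 nearest genes tested, over 7.40 Mb, had a median log2 difference of -0.85 and ranged from -2.32 to 0.02. Of these 7 were called lower and 0 higher. Over the 563 tested genes of chromosome 8 the median was -0.60, and 19.7% were called lower, against 9.15% of all genes tested. This was not particular to chromosome 8. On chromosome 16, which holds Ephb3, the median was -0.41 and 19.8% were called lower. On chromosome 5, which holds Ephb4, these were -0.33 and 13.4%. The chromosomes of the other genes described had between 5.12% and 8.11% called lower. The nearest tested gene, Arglu1, chosen for its position, was measured at 40.5 and 54.0 FPKM in 10p-HFSCs, against 21.9 and 29.1 FPKM in 48p-HFSCs (log2 difference -0.86, adjusted p from limma 0.086). The median of the 20 nearest genes was 0.42 for Efnb1, 0.66 for Epha7 and -0.18 for Efna5. The part of the chromosome-wide shift in the Efnb2 value was not tested.

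**Figure D5:**
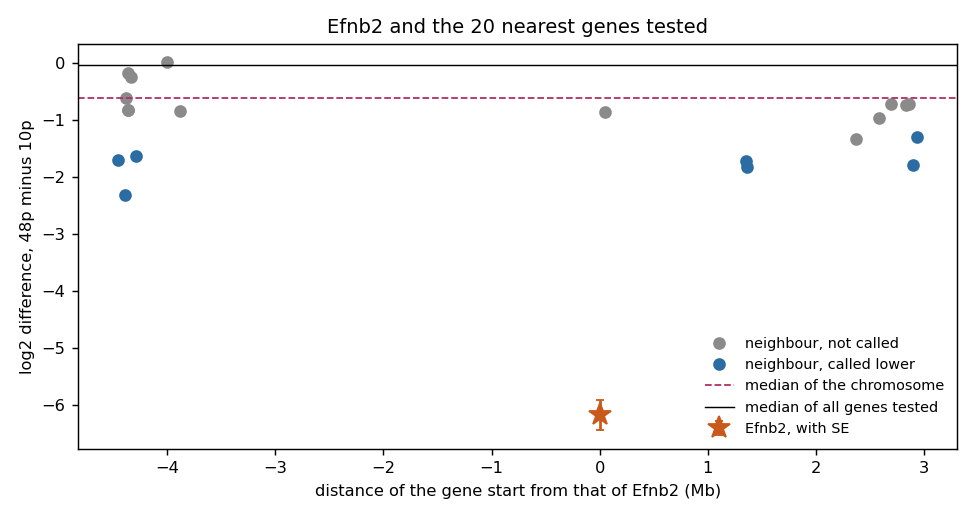
Log2 difference between 48p-HFSCs and 10p-HFSCs for Efnb2 (star, with SE) and the 20 nearest genes tested (points, blue where called lower), by distance from Efnb2 in Mb, with lines at the median of chromosome 8 and of all genes tested. The neighbours lie between -2.32 and 0.02 and Efnb2 at -6.18.

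Markers of cell types were measured in the same libraries, where fewer cells of a type and less RNA per cell cannot be told apart. Keratinocyte markers were high, with Krt5 at 1805 and 1473 FPKM in 10p-HFSCs, against 8156 and 5120 FPKM in 48p-HFSCs. Of the 6, 2 were called higher (Itga6 and Itgb4), against 10.8% of all genes tested. Of 5 markers of the hair follicle bulge, Cd34, Lhx2 and Lgr5 were below 1 FPKM in all libraries, with Cd34 between 0.0925 and 0.234 FPKM. Krt15 ranged from 18.8 to 424.8 FPKM, and Sox9 fell from 45.6 and 44.2 FPKM to 20.2 and 8.31 FPKM (log2 difference -1.71, adjusted p from limma 0.039). By antibody staining of the protein, the study found most cells of both passages CD34-positive. Its qRT-PCR found Cd34 and Krt15 maintained, and Lhx2 and Sox9 increased in 48p-HFSCs. The FPKM values thus differ from the qRT-PCR for Lhx2 and Sox9. The Cd34 values near 0 in all libraries also stand apart from the staining. Krt15, at 424.8 and 18.8 FPKM in replicates 1 and 2 of 48p-HFSCs, was too uneven to compare. The reasons were not tested. Fibroblast markers summed to 352.9 and 387.7 FPKM in 10p-HFSCs and to 2.54 and 3.32 FPKM in 48p-HFSCs. This sum came from Vim and Col1a2, which were called lower, while 7 of the 9 markers were below 1 FPKM in all libraries and Lum, Dcn and Thy1 were at 0. Endothelial cells, which are known to express Efnb2 and Ephb4, were represented by marker sums of 2.61 and 2.34 FPKM in the 10p libraries and 1.37 and 0.292 FPKM in the 48p libraries, with Cdh5, Kdr, Tie1 and Tek below 1 FPKM in every library. Melanocyte markers summed to between 1.10 and 11.7 FPKM, highest in replicate 2 of 48p-HFSCs, with Dct and Sox10 at 0. Markers of Schwann cells summed to 1.17 FPKM or less and those of leukocytes to 0.0865 FPKM or less. The part of these markers in the Efnb2 and Epha2 values was not tested.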

How the data were processed

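Polyadenylated RNA was sequenced with a stranded kit in single-end reads of 101 bp from 4 libraries. The authors mapped reads to mm10 and deposited 1 FPKM value per gene symbol and library. The submitters' processing notes name TopHat2 2.1.1, Bowtie2 2.2.8, SAMtools 0.1.18 and Cuffdiff 2.2.1, and the methods of the study name Cufflinks and other versions of Bowtie2 and SAMtools. The gene annotation, the strand setting and the handling of reads with several matches are not given in the sources used here.

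Values were analysed as log2(FPKM + 1) without further scaling between libraries, for the 11018 of 24346 symbols that reached 1 FPKM in 2 or more libraries. Median-of-ratios factors of the deposited values were 1 and 1.011 in the 10p libraries and 1.002 and 1.006 in the 48p libraries. By that measure the values were already level between libraries. The passages were compared in R 4.3.3 by limma 3.58.1 (lmFit, eBayes with a variance trend). A call needed a Benjamini-Hochberg adjusted p under 0.05 over all genes tested and a difference of 1 or more on the log2 scale in either direction. The fit was tested on simulated data, in which most of the changed genes were not called. Far fewer genes were changed there than were called in these libraries, so the share found need not carry over. The pseudocount understates differences of low genes. FPKM values carry no read totals. From the steps between low values, the depth relative to replicate 1 of 10p-HFSCs was 71.5% in the other 10p library and 83.1% and 46.8% in replicates 1 and 2 of 48p-HFSCs. Low values were least precise where the depth was lowest. Pearson's r between replicates on the log2 scale, across genes, was 0.981 in 10p-HFSCs and 0.950 in 48p-HFSCs, where 1871 genes differed at least 2-fold.

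The 10 genes and all lists were chosen with earlier results of these data known. Named were the 10 genes, the other 12 family genes, called genes of the mediator lists (up to 3 in each direction, with those of 1 list not reported here) and markers that touch a result. Src, Adam10, Zyx, Zan and Arglu1 were named outside this rule, after their values were seen. Positions came from GENCODE M21 and promoters from RefSeq. Alternatives were another pseudocount, filter, scaling and variance prior, the replicate number as a block, and leaving out each library. Other computations used Python 3.11.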

Additional observations from a re-analysis of the deposited data

How the results depend on the processing

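Groups of 2 libraries limit every call, and low values of replicate 2 of 48p-HFSCs are the least precise. Of 174 values of 22 genes under alternatives other than leaving out a library, 149 kept direction and call, 19 lost the call, 4 gained it and 2 reversed, which were Efna1 at -0.070 and Ephb3 at -0.44 after TPM rescaling. Of 88 values with a library left out, 49 kept direction and call, 33 lost it, 3 gained it and 3 reversed, which were Epha1 at 0.20 without replicate 1 of 10p-HFSCs and at 0.25 without replicate 2 of 48p-HFSCs (range -0.31 to 0.25), and Ephb3 at -0.013 without the latter (range -0.013 to 0.25). After TPM rescaling 623 of all genes were called higher, and the counts called were 1 higher and 1 lower of the 10 genes, 0 lower of the other family genes, and 0 higher and 0 lower of the mediators. Without the filter on low values, which raised the number of genes tested to 16679, these were 637 lower of all genes, 1 lower of the 10 genes, 0 lower of the other family genes, and 2 higher and 2 lower of the mediators. Filtering on a mean FPKM of at least 1 left 1 of the 10 genes called higher, because Epha7 was no longer tested. Quantile normalization called 2 other family genes lower and 3 of the 10 genes higher, with Epha2 added. Leaving out 1 library gave 35 to 1936 higher and 140 to 1875 lower among all genes. It gave 0 to 3 higher and 1 to 2 lower of the 10 genes, 0 to 1 higher and 0 to 2 lower of the other family genes, and 0 to 7 higher and 0 to 10 lower of the mediators. The lowest counts of all genes came without replicate 1 of 10p-HFSCs and the highest without replicate 1 of 48p-HFSCs. A fit with a lone library assumes that it varies like the other group. A replicate block in the fit gave 1613 higher and 1497 lower calls over all genes, and with it 1 other family gene, Efna3, was called higher (adjusted p from limma 0.00618). Epha2 was called too, as it was without replicate 1 of 48p-HFSCs. Deviations of same-numbered libraries had a correlation of 0.408 across genes, but with 2 pairs and no label that states a shared batch the libraries share only a number. Other causes of these changes were not tested.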
